A study of Oryza sativa Japonica Group with 4 samples.

Results

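Low-control CHG hypo-DMRs are the differentially methylated regions (DMRs) at which rice DNA lost methylation in the CHG context after zebularine treatment although the control level was already low. They were chosen by a measured value, the control level itself, which had to be under 0.3 on a scale on which 0 is no methylation and 1 is methylation of every read at every cytosine. Of the 3868 CHG hypo-DMRs in the list, 575 met this rule, which is 14.9% (exact 95% binomial interval 13.8 to 16.0%), and the other 3293 had a control level of at least 0.3. The 575 regions made up 0.303% of the 189883 hypo-DMRs of all contexts and covered 123.5 kb. They lie on all 12 chromosomes.

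Cytosine methylation was measured by bisulfite sequencing (BS-seq) in 4 libraries of the rice cultivar Nipponbare, with 1 library per condition. The hypo-DMRs compare 5-day-old seedlings grown for 5 days with 80 μM zebularine in DMSO with seedlings given DMSO alone, which are the control (CK) here. The hyper-DMRs compare genomic DNA methylated in vitro at GC dinucleotides by the enzyme M.CviP I (8 units on 4 μg of DNA with 640 μM S-adenosylmethionine for 1 h) with its own CK DNA. Zebularine and DMSO were given to seedlings in bulk, and the labels do not say whether the M.CviP I CK DNA and the DMSO control came from the same plants. No seedling age is given for the M.CviP I libraries.

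In BS-seq, bisulfite converts unmethylated cytosine so that it is read as T, while 5-methylcytosine is still read as C. Plants methylate cytosine in the contexts CG, CHG and CHH, in which H is any base but G. With the enzymes named as in Arabidopsis, MET1 copies CG methylation after replication, chromomethylases of the CMT3 type keep up CHG methylation at sites marked by methylated H3K9, and DRM2 and CMT2 methylate CHH. CHG methylation is known mainly from transposons and other heterochromatin. Zebularine is a cytidine analogue that is built into new DNA and traps DNA methyltransferases.

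Each region carries 1 mean level per library, given by the authors for CK and for treated DNA. With 1 library per condition there is no spread between replicates, and no difference below was tested between conditions. The number of reads behind a level is unknown except that the authors required at least 3 reads per position. The intervals below are exact binomial intervals that cover the counting of regions only, and regions of 1 library are not independent replicates. Levels, losses, and overlaps with other hypo-DMRs come from the same pair of libraries that chose the regions, so they are descriptions. Only the M.CviP I libraries took no part in the choice.

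At low-control CHG hypo-DMRs, zebularine-treated DNA kept almost no CHG methylation. The median level was 0.171 in the DMSO control (quartiles 0.132 and 0.224) and 0.0169 in the zebularine library (quartiles 0 and 0.0429). The highest treated level of any of these regions was 0.18. At the CHG hypo-DMRs with higher control levels, the medians were 0.804 in the control and 0.609 after zebularine, so those regions kept most of their methylation. In absolute terms the low-control regions lost less, with a median loss of 0.140 (quartiles 0.117 and 0.178) against 0.185.

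Relative to the starting level the order turned around. Low-control regions lost a median of 90.0% of their control level (quartiles 77.1 and 100%), against 24.3% at the other CHG hypo-DMRs. At least 50% of the control level was lost in 561 of the 575 regions (97.6%), against 386 of 3293 (11.7%), and the share over all CHG hypo-DMRs was 24.5%. A treated level of exactly 0 was listed for 181 regions (31.5%, interval 27.7 to 35.4%), against 13 (0.395%) of the others and 5.02% of all. Among the 302 low-control regions of at least 10 cytosines, this share was 10.6% (interval 7.36 to 14.6%). It was not computed for the others of that size. In 451 of the 575 regions (78.4%) the treated level was under 0.05.

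Part of this is set by the rule and by the calling of DMRs. The authors called only differences of at least 0.1, so a region with a control level of 0.3 had to lose at least 33.3% of it, and a region at the median control level at least 58.3%. The losses lay close to that floor. They were under 0.15 in 333 regions (57.9%), and 11 regions had a loss of exactly 0.1. Only 83 regions (14.4%) lost 0.2 or more, against 1357 (41.2%) of the others.

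**Figure D1:**
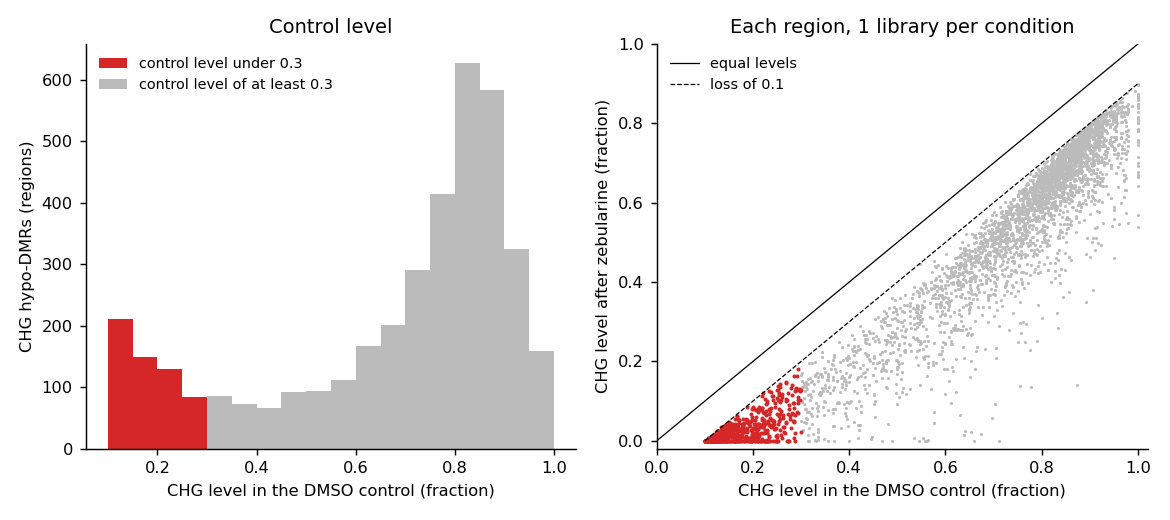
CHG hypo-DMRs counted by control level (left, number of regions) and each region by its level in the DMSO control and after zebularine (right, fraction), with low-control regions in red, others in grey and lines at equal levels and at a loss of 0.1. Low-control regions start between 0.1 and 0.2996 and end at 0.18 or less, with a median of 0.0169, whereas the regions with higher control levels have a median of 0.609 after zebularine.

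Within the class, the level that was left followed the level at the start. Part of this is built in, since the minimum loss of 0.1 holds the treated level at least 0.1 under the control level. The 211 regions with a control level from 0.10 to 0.15 lost a median of 0.114, which was 100% of their control level, and 119 of them (56.4%) had a treated level of 0. Of the 150 regions from 0.15 to 0.20, 32 (21.3%) had a treated level of 0, and the median loss was 0.148. The 130 regions from 0.20 to 0.25 lost 0.185, with 22 (16.9%) at 0. The 84 regions from 0.25 to 0.30 lost 0.196, or 72.2% of the control level, and 8 of them (9.52%) were at 0. The median number of cytosines rose along the same bins, from 7 to 10.5, 13 and 15, so the bin with the most zeros also had the fewest positions that could hold a methylated read.

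Low-control regions were small. They had a median of 10 listed CHG cytosines (quartiles 7 and 16) over 181 bp, against 27 cytosines over 446 bp at the others. Per 100 bp, 5.78 cytosines were listed against 7.47. Only positions with at least 3 reads were kept, so this need not be the density of CHG sites in the sequence. That density was not analysed here. Fewer than 10 cytosines were measured in 273 regions (47.5%), against 13.1% of the others, and 143 regions had fewer than 7, where 5 was the fewest in the list.

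The regions at the edges of the rule show how continuous the levels were. Just inside the limit, a region of 26 cytosines on chromosome 3 (22553889 to 22554105, MSU7.0, as are all positions here) fell from 0.2996 to 0.1277, and a region of 11 cytosines on chromosome 10 (18806250 to 18806318) fell from 0.2991 to 0.0227. Just outside it, a region of 5 cytosines on chromosome 1 (18623123 to 18623168) fell from 0.3 to 0.05, and a region of 28 cytosines on chromosome 10 (5839378 to 5839832) from 0.3004 to 0.1343. At the low end, regions of 5 cytosines on chromosome 2 (4325515 to 4325650 and 9545154 to 9545306) both fell from 0.1 to 0.

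Single regions differed in how much data stood behind their loss. The largest loss was at 13506059 to 13506304 on chromosome 6, where the mean of 8 cytosines fell from 0.2875 to 0. The region with the most cytosines, 22808154 to 22808652 on chromosome 6, fell from 0.21 to 0.0802 over 59 cytosines. The next were a region of 45 cytosines on chromosome 8 (19830758 to 19831256), which fell from 0.2596 to 0.1111, and a region of 43 cytosines on chromosome 1 (29558180 to 29558590), which fell from 0.26 to 0.1191. All 3 of these large regions kept a treated level above 0.05, while 451 of the 575 regions did not.

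Among regions with a treated level of 0, the most cytosines were found at 33407596 to 33407813 on chromosome 4, where 20 cytosines fell from 0.2475. A region of 19 cytosines on chromosome 12 (14121369 to 14121784) fell from 0.1337, and a region of 18 cytosines on chromosome 2 (35679183 to 35679515) from 0.2078. At these 3 regions the list thus gives no CHG methylation after zebularine, at an unknown depth.

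Loss of CG methylation accompanied these CHG losses less often than at regions with high control levels. A CG hypo-DMR shared at least 1 base with 308 of the 575 low-control regions (53.6%, interval 49.4 to 57.7%), against 2632 of 3293 (79.9%) of the others and 76% of all CHG hypo-DMRs. Longer regions have more room for an overlap, and the part of length in this difference was not tested. For CHH the order was the other way. A CHH hypo-DMR shared bases with 58 low-control regions (10.1%, interval 7.75 to 12.8%), against 95 (2.88%) of the others and 3.96% of all.

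By these overlaps, 261 low-control regions (45.4%) lay in a CG hypo-DMR alone, 11 (1.91%) in a CHH hypo-DMR alone, 47 (8.17%) in both, and 256 (44.5%) in neither. Among all CHG hypo-DMRs, 3.34% lay in both. The 256 regions in neither had a median control level of 0.152, a median treated level of 0.0134 and 7.5 cytosines, and 105 of them (41.0%) had a treated level of 0. Their largest losses were at the chromosome 6 region named above, at 10258325 to 10258635 on chromosome 5 (0.27 to 0 over 9 cytosines) and at 6263982 to 6264231 on chromosome 11 (0.2527 to 0 over 11 cytosines). The 261 regions in a CG hypo-DMR alone were larger, with 12 cytosines, and fell from a median of 0.193 to 0.0255.

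Where CG methylation was lost as well, it usually started much higher than CHG methylation and was only partly removed. At the 308 regions in a CG hypo-DMR, the CG level had a median of 0.729 in the control (quartiles 0.379 and 0.928) and 0.342 after zebularine. The median share lost was 49.5% for CG and 88.6% for CHG, and the CHG share was the higher of both in 261 regions (84.7%). The rule held the CHG control level under 0.3 but set no limit on the CG level. The absolute CG loss was larger than the CHG loss in 254 of the 308. The rule favours this order, since it also holds the CHG loss under 0.3. At the other CHG hypo-DMRs, the CG level fell from 0.957 to 0.777, and the shares lost were close to each other, at 18.6% for CG and 24.1% for CHG. There too the CHG share was the higher in most, 1847 of 2632 regions (70.2%), and the absolute CG loss was the larger in 1344.

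Where a CG loss was called, the CG level in the control spread over the whole scale. It was at least 0.9 in 102 of the 308 low-control regions in a CG hypo-DMR (33.1%). At the other CHG hypo-DMRs in a CG hypo-DMR, it was that high in 2460 of 2632 (93.5%). In those 102, CG fell from 0.946 to 0.735 and CHG from 0.190 to 0.0303, so that CG lost 21.4% and CHG 83.3%. In the 78 regions with a CG level of 0.6 to 0.9, CG fell from 0.799 to 0.438 and CHG from 0.204 to 0.0392. In the 63 regions from 0.3 to 0.6, CG fell from 0.464 to 0.117 and CHG from 0.201 to 0.021. In the 65 regions under 0.3, CG fell from 0.177 to 0.0077 and CHG from 0.164 to 0.0045. The share of CG methylation that was lost thus went from 21.4 to 38.7, 79.2 and 95.8% as the CG control level went down, whereas the CHG share stayed between 78.8 and 96.8%. The rule held CHG under 0.3 in every bin, and a minimum loss of 0.1 is a larger share of a lower level. The part of this selection in the contrast between CG and CHG was not tested.

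**Figure D2:**
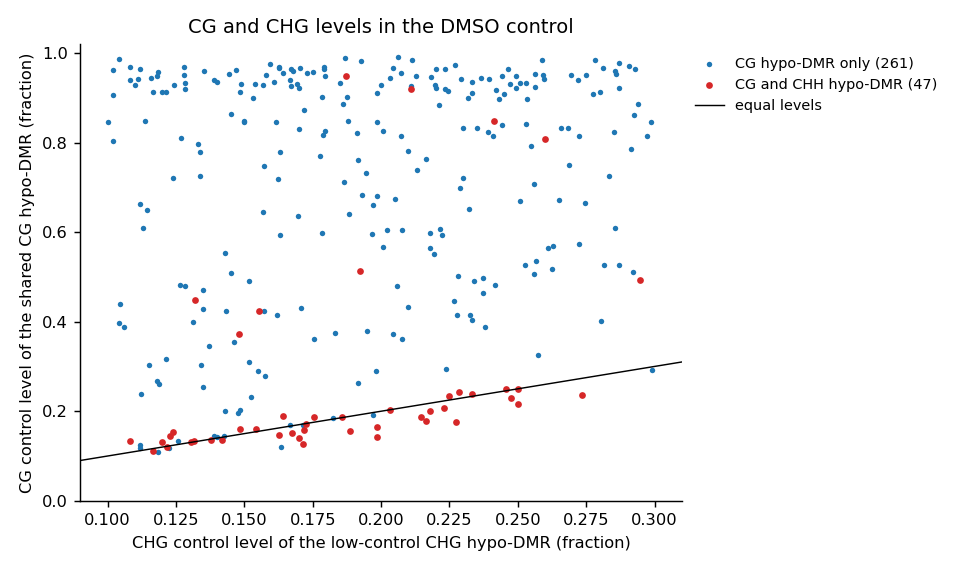
Control levels (fraction) of CG and CHG methylation at the low-control CHG hypo-DMRs that share bases with a CG hypo-DMR, marked by whether a CHH hypo-DMR also shares bases. The 261 regions without CHH loss have a median CG level of 0.818, and the 47 regions with CHH loss lie mostly near equal levels, with a median of 0.186 for both CG and CHG.

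At most of the 47 regions that lost methylation in all 3 contexts, the contexts had nearly the same level. In 36 of them (76.6%) the control levels of CG, CHG and CHH lay within 0.05 of each other, a class that was defined after the values were seen. In the control, CG had a median of 0.163, CHG of 0.172 and CHH of 0.173. After zebularine these medians were 0.0068, 0.0022 and 0.0060. The treated CHG level was under 0.02 in 35 of the 36 and was 0 in 17. The 36 regions lay on 11 chromosomes, with a median of 12 CHG cytosines over 183 bp. In the other 11 regions of the 47, CG had the highest median, 0.493 against 0.199 for CHG and 0.170 for CHH. None of the 82 higher-control regions with losses in all contexts was alike in this way. Of the 261 low-control regions in a CG hypo-DMR alone, CG and CHG lay within 0.05 of each other in 15 (5.75%), and CG was the higher in the other 246. Of the 11 in a CHH hypo-DMR alone, CHH and CHG lay that close in 9 (81.8%). The 82 higher-control regions had a CHG level of at least 0.3 by the rule, while their CHH level had a median of 0.179.

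The 3 smallest p-values among the low-control regions all belonged to this group. At 19124382 to 19124466 on chromosome 5, CHG fell from 0.25 to 0 over 7 cytosines, CHH from 0.25 to 0 and CG from 0.215 to 0.0067. At 26323178 to 26323245 on chromosome 6, CG, CHG and CHH all fell from 0.25 to 0, again over 7 CHG cytosines. At the chromosome 4 region of 20 cytosines named above, CHG fell from 0.2475 to 0, CG from 0.230 to 0.0077 and CHH from 0.237 to 0.0069. Both first regions had a standard deviation of 0 between their CHG cytosines, and the last one of 0.00791. Reads in which bisulfite conversion failed carry C in every context, and whether unconverted reads had a part in these regions was not tested, since the conversion rate of each library was not analysed here.

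Without the 36 regions, 539 low-control regions were left. The share in a CHH hypo-DMR was then 4.08%, against 2.88% of the higher-control regions. Since the 36 were defined by sharing bases with a CHH hypo-DMR, leaving them out had to lower that share. The remaining regions had a median loss of 0.139, a median of 88.3% of the control level lost and 50.5% in a CG hypo-DMR.

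The spread of the CHG level between the cytosines of a region depends on how a low mean is made up. It is larger with a few well-methylated cytosines than with many weakly methylated ones. It was recomputed from the test statistic of each region, as the variance between cytosines, pooled over the control and zebularine libraries, divided by the largest variance that the mean levels allow. This share is 0 where all cytosines have the same level and 1 where each is either fully methylated or not methylated. It had a median of 0.0656 in the low-control regions and 0.235 in the others, with a median standard deviation between cytosines of 0.0765 against 0.210. The highest share of any low-control region was 0.326. The test statistic also enters the authors' p-value cutoff, and that cutoff admits a region with a small loss only where the spread is small. Low-control regions with a mixture of fully methylated and unmethylated cytosines were thus largely kept out of the list. The low share therefore cannot tell whether low CHG levels are even or mixed.

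The 47 regions with losses in all contexts had the evenest levels, with a median variance share of 0.0212, and the 36 alike ones had 0.0130. The 261 regions in a CG hypo-DMR alone had 0.0882, and the 256 in neither had 0.0600. By CG control level, the variance share was 0.0264 in the regions with a CG level under 0.3 and between 0.0928 and 0.0975 in the others.

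**Figure D3:**
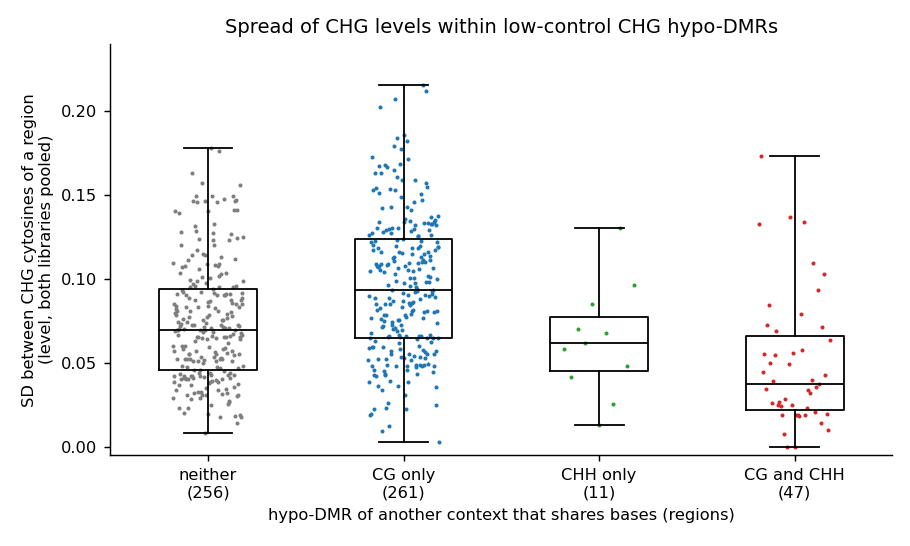
Spread of the CHG level between the cytosines of a low-control CHG hypo-DMR, by the hypo-DMRs of other contexts that share its bases, with 1 point per region, boxes for the median and quartiles and whiskers for the full range. The regions with losses in both CG and CHH are the most even, with a median standard deviation of 0.0376 (fraction) against 0.0934 for those with CG alone and 0.0699 for those with neither.

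At some of these regions, the M.CviP I CK gave a level for rice DNA from outside the zebularine experiment. A CHG hyper-DMR shared bases with 288 of the 575 low-control regions (50.1%, interval 45.9 to 54.3%), against 562 of 3293 (17.1%, interval 15.8 to 18.4%) of the others and 22% of all CHG hypo-DMRs. Since M.CviP I adds methylation, a gain can be called only where the CK DNA leaves room for it. Along the control level the share fell from 54.6% at 0.1 to 0.2 to 5.58% in the highest bin. A CG hyper-DMR shared bases with 72 low-control regions (12.5%, interval 9.93 to 15.5%), against 27 (0.820%) of the others and 2.56% of all. A CHH hyper-DMR was found at 543 regions (94.4%), the same percentage as at the others and over all, 94.4%.

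At the 288 regions, the untreated M.CviP I CK library was mostly below the DMSO control. The median CHG level was 0.165 in the DMSO control, 0.0188 after zebularine and 0.0728 in the M.CviP I CK (quartiles 0.0256 and 0.138, range 0 to 0.33), and M.CviP I raised it to 0.562. The CK level was under the DMSO level in 255 of the 288 regions (88.5%), and in 212 (73.6%) it lay between the zebularine and the DMSO level. In 43 it lay below the zebularine level. The regions were chosen on the DMSO level and were listed as hyper-DMRs only where a gain over the CK was called, and the part of either selection in the lower CK level was not tested. Over all CHG hyper-DMRs, the median CK level was 0.0132, below that at the low-control regions.

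The other CHG hypo-DMRs in a CHG hyper-DMR showed the same order at a higher level. Their medians were 0.693 in the DMSO control, 0.484 after zebularine and 0.559 in the M.CviP I CK, and the CK was under the DMSO level in 519 of 562 (92.3%). Across the 288 low-control regions, the levels of the DMSO control and the M.CviP I CK ran together with a Spearman coefficient of 0.52 (Pearson 0.53). Across the 562 others the Spearman coefficient was 0.82. These coefficients are across regions of 1 library each, over unequal ranges of level, and are a description. For the remaining 287 low-control regions, the M.CviP I CK level is not known from the lists.

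**Figure D4:**
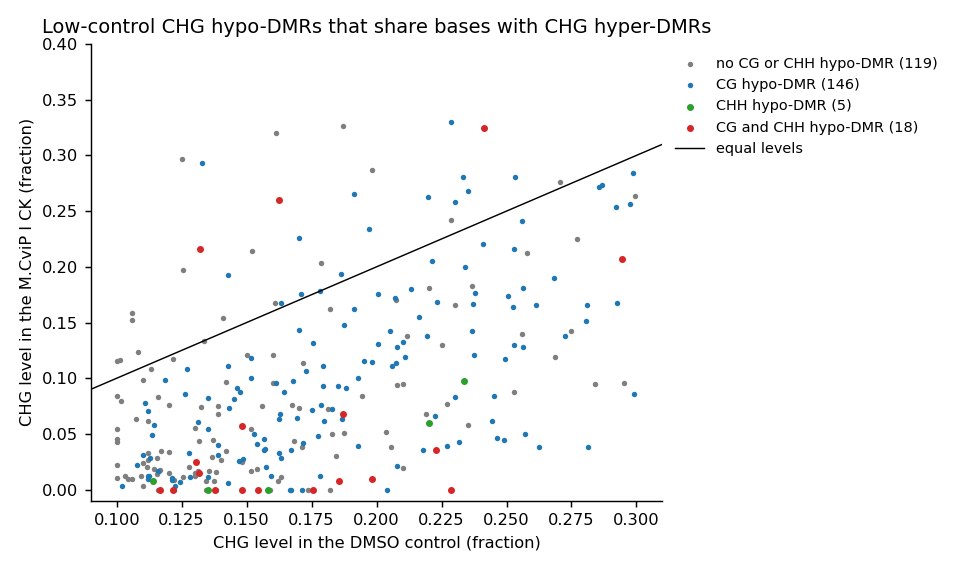
CHG levels (fraction) of the 288 low-control CHG hypo-DMRs that share bases with CHG hyper-DMRs, in the DMSO control and in the untreated M.CviP I CK, with 1 point per region colored by its other hypo-DMRs and a line at equal levels. In 255 of them the CK level is the lower one, and 182 have a CK level under 0.1.

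The M.CviP I CK level differed between regions with different other hypo-DMRs. It had a median of 0.0912 in the 146 regions in a CG hypo-DMR alone and 0.0577 in the 119 in neither. In the 18 with both it was 0.0125, and in the 5 in a CHH hypo-DMR alone 0.0079. The DMSO medians of the same regions, in that order, were 0.181, 0.139, 0.158 and 0.158. Of the 36 regions with alike levels, 13 lay in a CHG hyper-DMR, where the median CK level was 0, and 12 of the 13 were under 0.05. In the 15 of the 36 that lay in a CG hyper-DMR, the CK level of CG had a median of 0.0071, against 0.0133 over all CG hyper-DMRs. For the others of the 36 the CK level is not known from the lists, and a low CK level is near that of all CHG hyper-DMRs, which have a median of 0.0132. A difference between the plants and one between the libraries cannot be told apart.

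The highest M.CviP I CK levels show the opposite case. At 17772014 to 17772227 on chromosome 9, CHG was at 0.2287 in the DMSO control, 0.0191 after zebularine and 0.33 in the CK, with CG falling from 0.699 to 0.268. At 22367238 to 22367464 on chromosome 8, the DMSO level of 0.1871 fell to 0.0471, with a CK level of 0.3263. At 22659620 to 22659701 on chromosome 1, the DMSO level of 0.2414 fell to 0.1133, with a CK level of 0.3246, and CG fell from 0.847 to 0.663. At these 3 regions both the DMSO control and the M.CviP I CK were above the zebularine library.

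The 0.3 limit did not mark a step in most of these shares. From control levels of 0.1 to 0.2 up to 0.4 to 0.5, the share in a CG hypo-DMR went from 47.1 to 64.5, 66.7 and 74.4%, and it was 83.0% at 0.5 to 0.6 and 65.1% in the highest bin. The share in a CHG hyper-DMR went from 54.6 to 42.5, 44.7, 42.5 and 29.1% over the same bins. The share in a CG hyper-DMR was 18.0% in the lowest bin and 3.27% in the next. The CHH share was 10.2 and 9.81% in the lowest bins and 5.03% at 0.3 to 0.4.

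**Figure D5:**
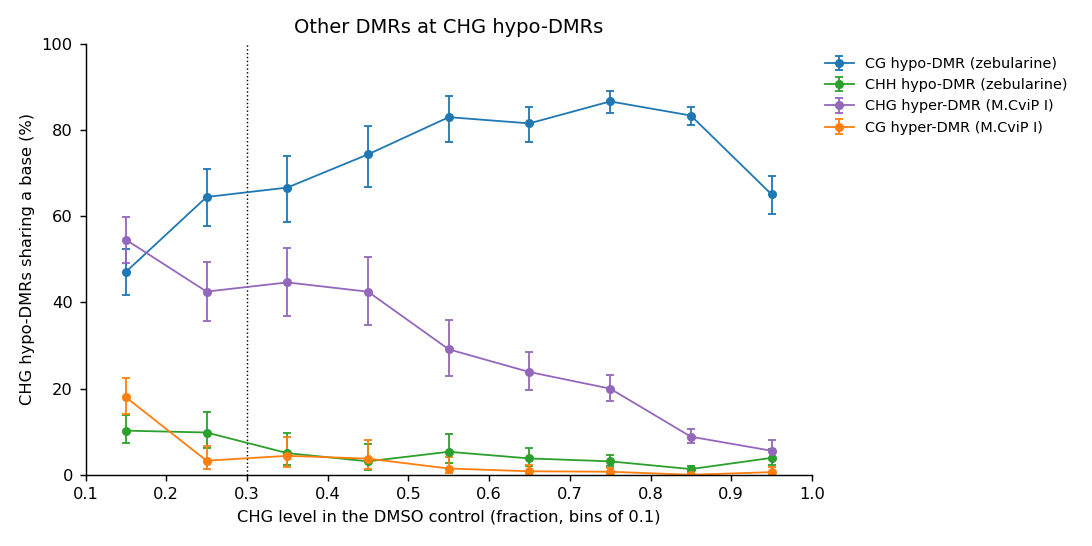
Percent of CHG hypo-DMRs that share bases with DMRs of other contexts or of the M.CviP I list, by control CHG level (fraction, bins of 0.1), with exact 95% binomial intervals. The share with a CG hypo-DMR goes from 47.1% in the lowest bin to 86.7% at 0.7 to 0.8 and 65.1% in the highest bin, and the share with a CHG hyper-DMR goes from 54.6 to 5.58%.

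The surroundings of the low-control regions differed in the same way from those of the other CHG hypo-DMRs. Coverage over the whole genome is not given here, so neither set can be placed against it. In windows of 10 kb, CG hypo-DMRs covered a median of 12.2% (quartiles 6.92 and 19.4%), against 26.7% around the others. CHG hyper-DMRs covered 29.7% (quartiles 21 and 38.3%) against 13.7%, and CG hyper-DMRs covered 7.69% against 2.19%. For CHH hyper-DMRs the coverage was alike, at 85.0 and 85.2%.

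Low-control regions lay on every chromosome, and most were far from any other CHG hypo-DMR. Another CHG hypo-DMR lay within 1000 bp of 56 of them (9.74%), against 354 (10.8%) of the others and 10.6% of all. Another low-control region lay that close to 37 (6.43%), and the median distance to the nearest one was 185064 bp. Whether low-control regions lie closer together than under random placement was not tested. Per chromosome there were between 28 (chromosome 9) and 57 (chromosome 7), or 11.4 to 18.3% of the CHG hypo-DMRs of a chromosome, and the median loss lay between 0.13 and 0.16 on every chromosome.

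The densest groups were 2 runs of 5 low-control regions, both on chromosome 8. From 7342623 to 7346192, the control levels of 0.1614, 0.1557, 0.2112, 0.1703 and 0.1928 fell to 0, 0, 0, 0.0128 and 0.0472 within 3570 bp. The last 3 of these regions also lost CG methylation, from 0.984 to 0.848, from 0.967 to 0.735 and from 0.982 to 0.596. From 9040043 to 9042328, control levels of 0.1786, 0.22, 0.2288, 0.2471 and 0.1445 fell to 0.0343, 0.0352, 0.0013, 0.0126 and 0 within 2286 bp. In this second run, 4 of the 5 lost CG methylation too, and all 4 kept a CG level above 0.6. These runs were picked for being dense, after the positions were seen. In both, the treated CHG level was 0.0472 or less, and the treated CG level was 0.596 or more wherever a CG loss was called. The first region of the first run had a CHG level of 0.32 in the M.CviP I CK, above its DMSO level of 0.1614.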

How the data were processed

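Per the methods, the authors used Fastp for trimming and Bismark for mapping to MSU7.0, kept positions with at least 3 reads, and called DMRs in CGmapTools (intersect, then dmr) at a p-value below 0.01 and a difference of at least 0.1. The deposited levels are a fraction from 0 to 1, the mean over a region's cytosines in 1 library. The deposited p-value is unadjusted, and the deposited t statistic is the score from which it was derived. The p-value was used here only to order regions and for a stricter cutoff, and the score only to recompute the spread between cytosines. The authors' difference column was not used, and losses were taken from the levels. The lists carry no header, so columns were read from the direction of change each list is named for.

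Overlaps needed 1 shared base, and the level of an overlapping DMR is the mean weighted by shared bases. Analyses used Python 3.11.15, numpy 2.4.6, pandas 2.3.3, scipy 1.17.1 and matplotlib 3.10.9, and were tested on simulated data. The regions, classes and measures were chosen with earlier results of these data known. Named regions were those with the largest loss, smallest p-value, most cytosines, lowest and highest control level, those just outside the limit, those with a treated level of 0 and most cytosines, those with the largest losses in both or neither of the other contexts, and those with the highest M.CviP I CK level. Alternatives changed the control limit, cutoffs, cytosine minimum, overlap, distance, merging and averaging. Gene and sequence context was planned but not analysed here.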

Additional observations from a re-analysis of the deposited data

How the results depend on the processing

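Of 156 alternative values, 82 stayed within the 95% interval of the reported value (numbers of regions within 1.5 times) and 74 lay outside it. That 0 changed sign was fixed in advance, since no quantity here can be negative. Under a control level of 0.2, 361 regions were left, with a median loss of 0.124, 94.4% of the level lost, a variance share of 0.0463, 47.1% in CG hypo-DMRs, 54.6% in CHG hyper-DMRs and an M.CviP I CK level of 0.0455. At 0.25 the loss was 0.134, the share lost 91.7% and the variance share 0.0573. At 0.35 these were 0.148, 87.1% and 0.0727, and at 0.4 they were 0.156, 84.3% and 0.0809, with a CK level of 0.0935. Each limit takes in a different set of regions, and the part of this selection in the changed values was not tested. With a p-value cutoff of 0.001, 291 regions were left, with a loss of 0.147, 94.9% lost, a variance share of 0.0485, 59.8% in CG and 16.2% in CHH hypo-DMRs, and 14.8% within 1000 bp of another CHG hypo-DMR. With a difference of at least 0.15, 242 were left, with a loss of 0.186, a variance share of 0.0878, 62.8% in CG and 13.6% in CHH hypo-DMRs, 41.7% in CHG hyper-DMRs, a CK level of 0.121 and 13.6% close to another. With at least 10 cytosines, 302 were left, with a loss of 0.146, 80.8% lost, a variance share of 0.0938, 65.2% in CG hypo-DMRs, a CK level of 0.0976 and 12.6% close to another. Means in place of medians gave a loss of 0.151, 86.0% lost, a variance share of 0.0763 and a CK level of 0.0924. Requiring 50% of a region to be shared gave 44.3% in CG hypo-DMRs and 43.7% in CHG hyper-DMRs. Counting only other DMRs with a difference of at least 0.2 gave 34.6% in CG and 1.57% in CHH hypo-DMRs. Distances of 200 and 10000 bp gave 6.96% and 24.0% close to another. Leaving out the 36 regions with alike levels, chosen after seeing the data as were the other tolerances for alike, gave 4.08% in CHH hypo-DMRs. The cause of the differences between settings was not tested. No paired analysis was possible because no condition was repeated. Alternatives on gene and promoter context were not run. Region levels carry no read depth, so the precision of a single level is unknown, and the 143 regions of fewer than 7 cytosines rest on the fewest positions.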
